A study of Mus musculus with 6 samples.

Results

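The 9 genes Neo1, Gpm6a, Clca3a1, Ctnnal1, Fgd5, Mllt3, Sult1a1, Ifitm1 and Ltb are genes reported in dormant or label-retaining haematopoietic stem cells (HSCs). They were located by Ensembl identifier among the 49585 genes of each count table, and all 9 were among the 14785 genes kept after the filter on low counts. Some of them were picked because they differed the same way in every pair of these libraries. Their difference between the populations is therefore given as a description, without a test.

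Bulk RNA sequencing was carried out on HSCs from the bone marrow of untreated C57BL/6 mice aged 8 to 16 weeks. Cells lacking lineage markers (Lin-) were gated as Kit+ and Sca-1+, as CD150+ and CD201+, and as CD48- and CD34-, and were separated into those with high surface CD38 (CD38-positive) and those with low surface CD38 (CD38-negative). CD38 is an enzyme of the cell surface that consumes NAD. There were 3 CD38-positive and 3 CD38-negative libraries, each from the pooled cells of 10 mice, matched by the study design into 3 pairs. The sources used here do not say whether the paired libraries shared their mice. P-values measure the spread between these pools, not between single animals.

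Most HSCs in the adult marrow are out of the cell cycle, and dormant HSCs are the fraction that divides most rarely. They are recognised by keeping a label that is diluted at each division, and they hold much of the capacity for long-term blood renewal. The 9 genes are not one pathway. Neo1 (neogenin, a receptor for netrins and repulsive guidance molecules), Gpm6a (a proteolipid of the plasma membrane) and Clca3a1 (of the calcium-activated chloride channel regulator family) act at the cell surface. Ctnnal1 (an alpha-catenin-like protein) and Fgd5 (an exchange factor for Cdc42) act on adhesion and the cytoskeleton. Mllt3 is a nuclear reader of acylated histones that works with transcription elongation complexes, Sult1a1 is a cytosolic sulfotransferase, Ifitm1 is an interferon-induced membrane protein and Ltb is a lymphotoxin subunit.

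All 9 are protein-coding genes, and on GRCm38 (GENCODE M21) they lie on 7 chromosomes. Neo1 spans chr9:58874687-59036441 (minus strand), Gpm6a chr8:54954843-55060871 (plus) and Clca3a1 chr3:144729677-144760977 (minus). Ctnnal1 at chr4:56810935-56865188 (minus) and Mllt3 at chr4:87769925-88033364 (minus) share chromosome 4. Sult1a1 at chr7:126672865-126676432 (minus) and Ifitm1 at chr7:140967221-140969825 (plus) share chromosome 7. Fgd5 spans chr6:91978878-92076004 (plus) and Ltb chr17:35194439-35196320 (plus).

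The sequences upstream of 5 of the genes are shown because these genes carry the differences described below: Neo1, Gpm6a, Clca3a1 and Ctnnal1 have the highest fitted CD38-positive to CD38-negative ratios, and Ltb the lowest. Sequences and coordinates are from RefSeq on GRCm38.p6, read 5′ to 3′ on the strand of the gene and ending at the base before the annotated start. Capitals mark CG dinucleotides in the first 4. The Neo1 window is chr9:59036442-59036691 (minus strand), the Gpm6a window chr8:54954478-54954727 (plus strand, upstream of one of its annotated starts), the Clca3a1 window chr3:144760978-144761227 (minus strand) and the Ctnnal1 window chr4:56865212-56865461 (minus strand).
Neo1: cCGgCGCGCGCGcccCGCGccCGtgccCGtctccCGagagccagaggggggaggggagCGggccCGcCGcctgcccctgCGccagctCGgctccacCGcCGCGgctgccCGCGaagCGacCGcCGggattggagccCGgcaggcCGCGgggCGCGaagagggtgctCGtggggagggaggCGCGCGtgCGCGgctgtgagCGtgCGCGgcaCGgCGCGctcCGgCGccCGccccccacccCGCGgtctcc
Gpm6a: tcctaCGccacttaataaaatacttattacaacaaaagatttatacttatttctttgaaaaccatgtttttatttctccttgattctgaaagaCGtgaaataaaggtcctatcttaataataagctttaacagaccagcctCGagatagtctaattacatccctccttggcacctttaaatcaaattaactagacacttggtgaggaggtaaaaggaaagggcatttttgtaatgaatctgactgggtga
Clca3a1: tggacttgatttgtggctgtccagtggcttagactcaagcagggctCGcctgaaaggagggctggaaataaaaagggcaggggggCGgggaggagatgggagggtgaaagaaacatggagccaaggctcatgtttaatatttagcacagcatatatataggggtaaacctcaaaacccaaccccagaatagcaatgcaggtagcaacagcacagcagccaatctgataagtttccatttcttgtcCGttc
Ctnnal1: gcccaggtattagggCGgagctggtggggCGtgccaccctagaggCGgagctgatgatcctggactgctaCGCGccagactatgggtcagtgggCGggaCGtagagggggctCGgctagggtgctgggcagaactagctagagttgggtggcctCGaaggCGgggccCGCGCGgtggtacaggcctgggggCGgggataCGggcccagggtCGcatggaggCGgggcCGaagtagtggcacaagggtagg

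These 4 windows of 250 bases have little in common in base composition. The Neo1 window held 45 CG dinucleotides at 83.2% GC, a GC content at percentile 99.6 of 32536 distinct promoter windows, whose medians were 6 CG dinucleotides and 52.4% GC. The Ctnnal1 window held 18 at 68.4% GC. The Clca3a1 and Gpm6a windows held 3 each, at 48.8% and 33.6% GC, and the Gpm6a window was at GC percentile 3.49.

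In the Ltb window, chr17:35194257-35194438 (plus strand), capitals mark the site GGAAAGTCCC, which read on the opposite strand matches the NF-kappa-B consensus. This window was trimmed to 182 bases to end at the gene's first annotated start, and the site was singled out after the sequence had been searched.
Ltb: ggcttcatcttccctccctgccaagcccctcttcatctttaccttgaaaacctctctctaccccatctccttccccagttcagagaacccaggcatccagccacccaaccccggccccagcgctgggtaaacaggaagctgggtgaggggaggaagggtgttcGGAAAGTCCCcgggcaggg

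The NF-kappa-B consensus occurred on either strand in 0.36% of the 32536 windows of 250 bases, and among the 11 windows of the 9 genes only in that of Ltb. Of 8 other motifs searched on both strands, the SP factor motif GGGCGG, in 33% of all windows, was found upstream of Neo1, Clca3a1, Ctnnal1, Fgd5 and Mllt3. The interferon response element, in 2.98% of all windows, was found in the printed window of Clca3a1 and upstream of the other annotated start of Gpm6a, not in the Gpm6a window shown. The MEIS factor motif TGACAG, in 15.8% of windows, was found upstream of Fgd5 and of 1 of the Mllt3 starts. None of the 11 windows held AGATAA, the motif of GATA factors, which was in 9.97% of all windows. The same held for the RUNX factor motif TGTGGT (14% of all windows), the ETS factor motif CGGAAGT (4.95%), the AP-1 motif TGANTCA (6.73%) and the E-box CACGTG (6.04%). A match or its absence describes only these letters in these windows.

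Libraries held 16771180 to 18558610 counted reads, so that 3 reads, the limit that a count of 0 allows, corresponded to 0.166 to 0.183 CPM (counts per 1000000 counted reads). Values below are CPM after TMM scaling, a correction for differences in composition between libraries. Cd38 itself averaged 47.2 ± 10.7 CPM in the CD38-positive against 27.9 ± 6.70 CPM in the CD38-negative libraries (SD, n = 3 each), with the CD38-positive library the higher in all 3 pairs. The 6 HSC markers Kit, Ly6a, Slamf1, Procr, Hlf and Mecom were detected in all libraries. The sum of 10 neutrophil genes was 70583 to 160069 CPM after TMM scaling, which is not a share of the reads of a library. Transcripts of Cd48 (970 to 2394 reads) and Cd34 (3652 to 5138 reads), whose proteins the gate excluded, were also present. The CD38-negative library of pair 2 stood apart: the geometric mean of these 6 stem cell markers was 113 CPM there, against 45.3 to 90.0 CPM in the other libraries. Not every marker followed this mean. Kit, Ly6a, Hlf and Mecom were highest in that library, while Slamf1 and Procr were highest in the CD38-positive library of pair 3. In bulk samples, fewer cells of a type and less RNA per cell cannot be told apart.

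**Figure D1:**
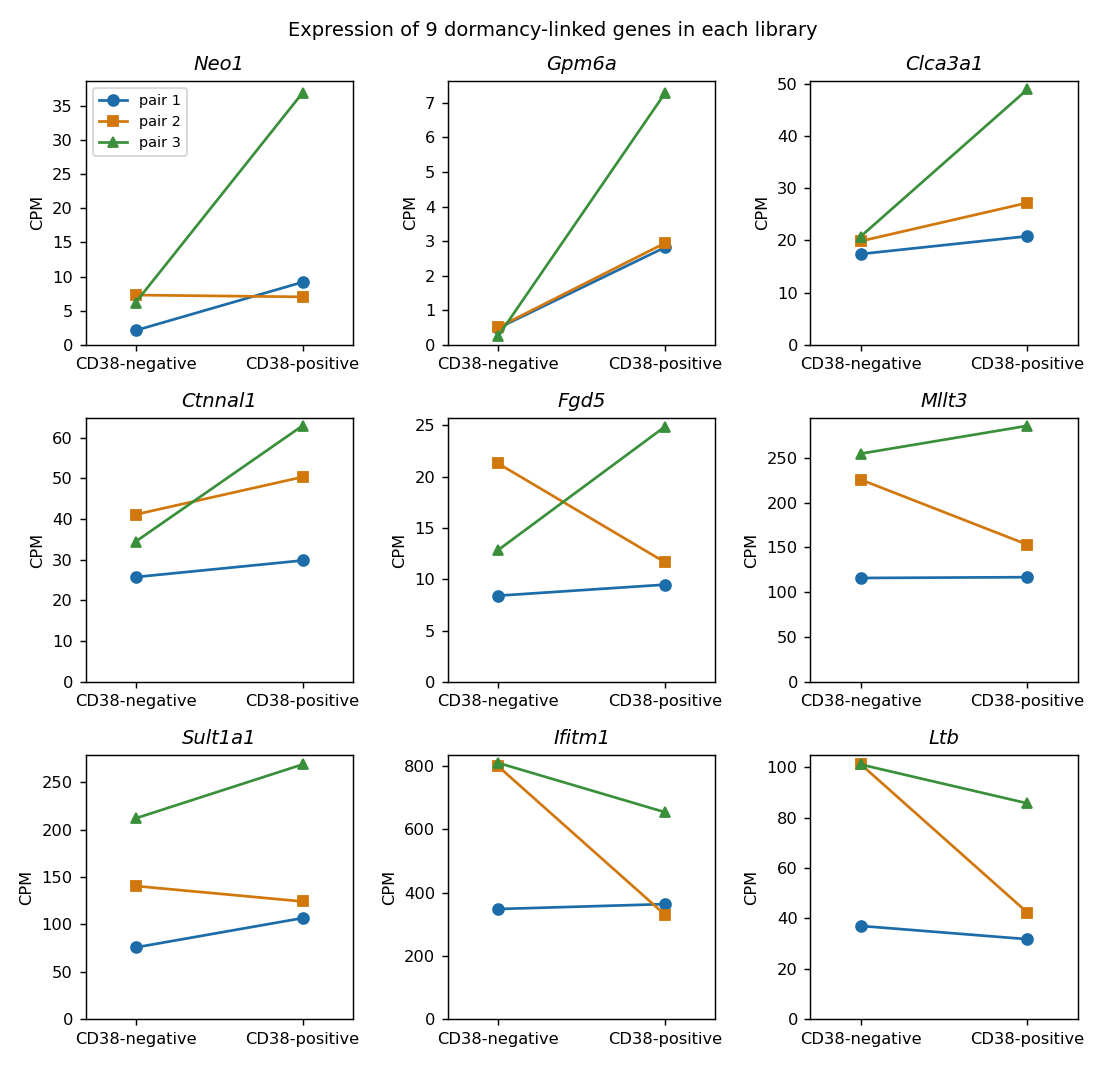
CPM of each of the 9 genes (vertical axes, each starting at 0) in the CD38-negative and CD38-positive library of each pair, with a line joining the libraries of a pair. Gpm6a and Clca3a1 show no overlap between the populations, while Ltb is lower in the CD38-positive library of every pair.

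Neo1, the netrin and repulsive guidance molecule receptor, was most abundant in 1 library. The CD38-positive libraries of pairs 1, 2 and 3 held 153, 124 and 670 Neo1 reads, or 9.17, 7.02 and 37.0 CPM, and the CD38-negative libraries 35, 131 and 101 reads, or 2.08, 7.28 and 6.18 CPM. The CD38-positive library of pair 3 was far above the other 5, the CD38-negative library of pair 1 was the lowest, and the libraries of pair 2 were nearly equal. The log2 difference was 2.08, -0.05 and 2.56 in pairs 1, 2 and 3, and the fitted log2 fold change was 1.57 ± 0.43 (SE). It was 0.98 without pair 3 and 2.37 without pair 2.

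Marrow stromal markers are given beside Neo1. The sum of 8 stromal genes was 28.3 to 185 CPM in CD38-positive and 36.7 to 128 CPM in CD38-negative libraries, and its log2 difference was 0.54, -0.37 and 1.93 in pairs 1, 2 and 3. All 8 were detected, and the most abundant, Cxcl12 (a chemokine of marrow stroma), had 2526, 205 and 2084 reads in CD38-positive and 1753, 397 and 422 reads in CD38-negative libraries. Single genes of the list differed: Sparc, a matrix protein, was higher in the CD38-positive library of all 3 pairs (log2 differences of 1.10, 2.33 and 2.02), Col1a1 was lower in all 3 (-0.68, -0.44 and -0.80), and the other 6 had both signs. Their part in the Neo1 difference was not tested.

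Most ligands and other receptors of the neogenin pathway had few reads. The exception among receptors was Unc5a, a netrin receptor, with 56, 69 and 96 reads in CD38-positive and 54, 55 and 70 reads in CD38-negative libraries and an edgeR adjusted p of 0.955. Ntn1 had 16 reads and Ntn4 23 reads over the 6 libraries, Dcc had 1, and Rgma, Ntn5, Hjv and Unc5d had 0. Of 15 genes listed, 14 were found in the table and 5 could be tested, of which 0 passed an adjusted p of 0.05 and 0 had an unadjusted p under 0.05 (edgeR's quasi-likelihood test; DESeq2 also called 0). Their median log2 fold change was -0.37, against 0.00 for all genes tested. Rgmb, a repulsive guidance molecule, had 4, 10 and 18 reads in CD38-positive and 10, 21 and 31 reads in CD38-negative libraries, a log2 fold change of -1.06 ± 0.54 (SE) with an edgeR adjusted p of 0.926. Arhgef12, a guanine nucleotide exchange factor downstream of the receptor, was at 7.22 ± 2.02 and 9.66 ± 1.44 CPM (SD, n = 3 each), with an edgeR adjusted p of 0.929.

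Gpm6a, a relative of the myelin proteolipid protein, had the highest ratio between the populations of the 9 genes and the lowest level. The CD38-positive libraries of pairs 1, 2 and 3 held 47, 52 and 132 Gpm6a reads, or 2.82, 2.94 and 7.28 CPM, and the CD38-negative libraries 8, 9 and 4 reads, or 0.48, 0.50 and 0.24 CPM. All 3 CD38-positive libraries were above all 3 CD38-negative libraries, and the CD38-positive library of pair 3 was the highest. Its log2 difference was 2.31, 2.31 and 4.36 in pairs 1, 2 and 3, and the fitted value was 3.24 ± 0.54 (SE), or 2.54 without pair 3. The exact 95% Poisson interval of the lowest CD38-positive library was 2.07 to 3.75 CPM, and that of the highest CD38-negative library was 0.229 to 0.950 CPM. These intervals cover counting error only.

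Gpm6b, the closest relative of Gpm6a, was also low. It had 37, 18 and 47 reads in CD38-positive and 40, 66 and 9 reads in CD38-negative libraries, with pair differences of -0.10, -1.74 and 2.02 on the log2 scale. Both the highest and the lowest library of Gpm6b were CD38-negative, and its log2 fold change was -0.01 ± 0.69 (SE) with an edgeR adjusted p of 0.998.

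Clca3a1, of a family of chloride channel regulators, was at 20.8, 27.2 and 49.0 CPM in CD38-positive and 17.4, 19.8 and 20.7 CPM in CD38-negative libraries. The populations did not overlap, but the lowest CD38-positive library was separated from the highest CD38-negative library by only 20.80 against 20.73 CPM. The CD38-negative libraries were close together and the CD38-positive library of pair 3 was the highest. The log2 difference was 0.26, 0.45 and 1.24 in pairs 1, 2 and 3, and the fitted value was 0.65 ± 0.24 (SE), or 0.36 without pair 3. An antisense gene, Gm34866, shares 170 bases, or 4.36%, of the Clca3a1 exons, and without a stated strand setting its reads cannot be told apart there.

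Clca3a1 was nearly alone in its family. Of 6 relatives listed, Clca3a2 had 2 reads over the 6 libraries, and Clca4a and Clca4b had 1 each. None could be tested.

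Endothelial markers are given beside these 3 surface genes because endothelium is another marrow cell type. The sum of 8 endothelial genes was 111 to 175 CPM in CD38-positive and 118 to 182 CPM in CD38-negative libraries, with log2 differences of -0.10, -0.27 and 0.48 in pairs 1, 2 and 3. Pecam1, Tie1 and Emcn made up most of this sum in every library. The sum hides single genes: 5 of the 8 (Cdh5, Pecam1, Flt1, Stab2 and Flt4) were higher in the CD38-positive library of all 3 pairs. So were Gpm6a, Clca3a1 and 13.2% of all genes tested. Of the 8, 0 were lower in all 3, and 6 passed the filter on low counts. Cdh5 and Flt4 did not pass it, so the share of all genes tested does not cover them. The pattern was not particular to endothelium: of 8 monocyte and macrophage genes, 5 were also higher in all 3 pairs and 0 were lower in all 3. Flt1, a VEGF receptor, had log2 differences of 0.36, 1.02 and 2.74, and Stab2, a scavenger receptor of sinusoidal endothelium, of 0.58, 1.02 and 1.09, each with an edgeR adjusted p of 0.925. All 8 endothelial genes were detected, and Cdh5, which defines endothelium, had 12, 5 and 5 reads in CD38-positive and 6, 2 and 0 reads in CD38-negative libraries. The part of endothelial RNA in the 3 differences was not tested.

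Ctnnal1, which resembles alpha-catenin, was at 29.8, 50.3 and 62.9 CPM in CD38-positive and 25.7, 41.1 and 34.4 CPM in CD38-negative libraries. It was higher in the CD38-positive library of every pair, but the populations overlapped because pair 1 was low in both. The log2 difference was 0.21, 0.29 and 0.87 in pairs 1, 2 and 3, and the fitted value was 0.46 ± 0.21 (SE), or 0.25 without pair 3. Of the 4 catenins that could be tested, 0 passed edgeR's adjusted p, 0 had an unadjusted p under 0.05, and DESeq2 called 0. Ctnna1, the alpha-catenin of adherens junctions, was at 135 ± 26.6 and 114 ± 13.1 CPM, and Ctnnb1 (beta-catenin) at 79.7 ± 6.78 and 76.7 ± 9.81 CPM (SD, n = 3 each).

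Fgd5, an activator of Cdc42 used as a reporter gene for HSCs, had no common direction. It was at 9.47, 11.7 and 24.9 CPM in CD38-positive and 8.40, 21.3 and 12.8 CPM in CD38-negative libraries of pairs 1, 2 and 3. The CD38-positive library was the higher in pairs 1 and 3 and the lower in pair 2. The log2 differences were 0.17, -0.86 and 0.95, and the fitted value was 0.09 ± 0.32 (SE), which became -0.36 without pair 3 and 0.57 without pair 2. All 6 genes of the Fgd list could be tested, of which 0 passed edgeR's adjusted p, 0 had an unadjusted p under 0.05 and DESeq2 called 0. Cdc42, the GTPase that these proteins activate, was at 1328 ± 168 and 1159 ± 96.6 CPM (SD, n = 3 each).

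Mllt3, known to maintain human HSCs, was likewise without a common direction. It was at 117, 153 and 286 CPM in CD38-positive and 116, 226 and 255 CPM in CD38-negative libraries of pairs 1, 2 and 3. Both libraries of pair 1 were the lowest and both of pair 3 the highest, in either population. The log2 differences were 0.01, -0.56 and 0.17, and the fitted value was -0.13 ± 0.20 (SE), which changed sign to 0.08 without pair 2. Of 15 tested partners in elongation complexes, 0 passed edgeR's adjusted p, 0 had an unadjusted p under 0.05, and DESeq2 called 0. Their median log2 fold change was -0.19, against 0.00 for all genes tested, with 12 below 0 and 3 above (50.1% of all genes were above). Mllt1, the closest relative of Mllt3, was at 8.79 ± 2.23 and 6.70 ± 2.69 CPM, and Aff4, a scaffold of the super elongation complex, at 16.4 ± 3.28 and 21.4 ± 3.83 CPM (SD, n = 3 each).

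Sult1a1, which transfers sulfate to phenolic compounds, was at 107, 124 and 269 CPM in CD38-positive and 75.6, 140 and 212 CPM in CD38-negative libraries of pairs 1, 2 and 3. Both libraries of pair 3 were above the other 4. The log2 differences were 0.50, -0.18 and 0.34, and the fitted value was 0.22 ± 0.20 (SE), ranging from 0.08 without pair 1 to 0.41 without pair 2. Its exons share 61 bases, or 4.05%, with Sgf29 on the opposite strand.

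Of the cytosolic sulfotransferases listed, Sult1a1 was the one with substantial counts. Sult1b1, Sult1c1, Sult1c2, Sult1d1, Sult1e1 and Sult2a1 had 0 reads in all 6, and Sult2b1, Sult4a1, Sult5a1 and Sult6b1 had 11 to 109 reads over the 6 libraries. The enzymes that make the sulfate donor were present, with Papss1 at 56.0 ± 20.8 and 45.6 ± 2.38 CPM (SD, n = 3 each). Papss2 was at 26.3 ± 9.70 and 16.4 ± 3.48 CPM (SD, n = 3 each), a log2 fold change of 0.63 ± 0.25 (SE) with an unadjusted p of 0.0266 and an adjusted p of 0.925 by edgeR. Of the 4 genes of this list that could be tested, 0 passed edgeR's adjusted p, 1 had an unadjusted p under 0.05, and DESeq2 called 0.

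Ifitm1, which restricts the entry of viruses into cells, was at 364, 330 and 655 CPM in CD38-positive and 348, 800 and 811 CPM in CD38-negative libraries of pairs 1, 2 and 3. The CD38-negative libraries of pairs 2 and 3 were the highest. The log2 differences were 0.06, -1.28 and -0.31, and the fitted value was -0.50 ± 0.25 (SE), which was -0.14 without pair 2 and -0.79 without pair 1. The Ifitm genes are close copies of each other, so the division of reads among them is uncertain. Ifitm2 was at 165 ± 57.5 and 246 ± 63.9 CPM (SD, n = 3 each), with log2 differences of 0.39, -1.34 and -0.83. Its log2 fold change was -0.60 ± 0.28 (SE), with an unadjusted p of 0.0467 and an adjusted p of 0.926 by edgeR.

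Of the 5 Ifitm relatives that could be tested, 0 passed edgeR's adjusted p, 1 had an unadjusted p under 0.05 and DESeq2 called 0. Ifitm3 was at 525 ± 59.7 and 604 ± 116 CPM, and Ifitm6 at 481 ± 343 and 457 ± 50.3 CPM (SD, n = 3 each). Markers of neutrophils, which also express Ifitm genes, had log2 differences of 0.47, -0.18 and -0.47 over 10 genes summed, with 70583 to 160069 CPM in CD38-positive and 80065 to 128263 CPM in CD38-negative libraries. Their part in the Ifitm1 difference was not tested.

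Ltb, the membrane anchor of the lymphotoxin heterotrimer, was the only one of the 9 genes lower in the CD38-positive library of every pair. It was at 31.7, 42.3 and 85.7 CPM in CD38-positive and 37.0, 101 and 101 CPM in CD38-negative libraries of pairs 1, 2 and 3. The populations overlapped because both libraries of pair 1 were low and both of pair 3 were high. The log2 differences were -0.22, -1.26 and -0.24, and the fitted value was -0.57 ± 0.23 (SE), or -0.24 without pair 2. Lymphocytes also express Ltb. The sum of 9 B and plasma cell genes was 323 to 1029 CPM in CD38-positive and 1182 to 3523 CPM in CD38-negative libraries, with log2 differences of -0.81, -1.87 and -2.69, led by immunoglobulin transcripts. All 9 were detected, but the B cell markers Cd79a and Ms4a1 were not lower in every pair, with log2 differences of 1.11, -0.40 and -0.39 for Cd79a and 0.70, -0.79 and -0.71 for Ms4a1. The sum of 8 T and NK cell genes was 139 to 339 CPM in CD38-positive and 186 to 290 CPM in CD38-negative libraries, with log2 differences of 0.69, -0.41 and -1.07, and Cd3e had 0 to 4 reads in a library. Most of this sum was Nkg7 in every library, with log2 differences of 0.76, -0.47 and -1.14. Of the 8, only Trbc2 (7 to 36 reads in a library) was higher in the CD38-positive library of all 3 pairs, and 0 were lower in all 3. The part of lymphocyte RNA in the Ltb difference was not tested.

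The receptor and downstream genes of lymphotoxin were present. The list also held the ligands Tnf and Tnfsf14 and the receptors Tnfrsf14, Tnfrsf1a and Tnfrsf1b. Of its 14 tested genes, 12 had a fitted value above 0 (50.1% of all genes) and 2 below, with a median log2 fold change of 0.18. Of the 14, 0 passed edgeR's adjusted p, 0 had an unadjusted p under 0.05, and DESeq2 called 0. Ltbr itself was at 0.003 ± 0.258 (SE), with log2 differences of -0.09, -0.43 and 0.54. Ltbr, the lymphotoxin receptor, had 1584 reads over the 6 libraries, while Lta, the partner subunit of Ltb, had 13. Traf3, an inhibitor of the noncanonical NF-kappa-B pathway, was at 13.7 ± 1.04 and 10.3 ± 1.96 CPM, and the TNF receptor gene Tnfrsf1b at 67.6 ± 15.0 and 53.7 ± 11.7 CPM (SD, n = 3 each).

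**Figure D2:**
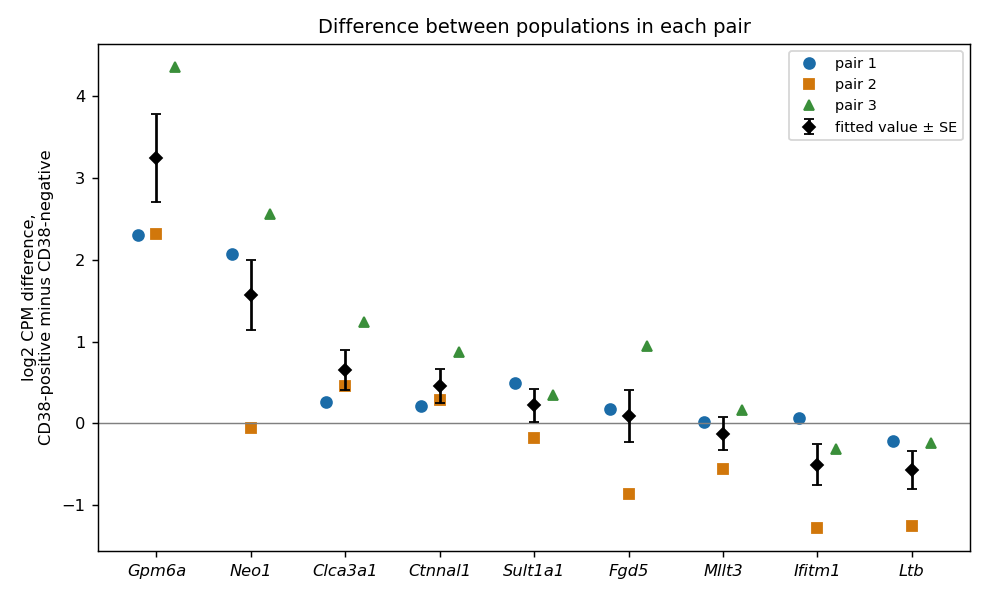
Log2 CPM difference of each of the 9 genes (CD38-positive minus CD38-negative, vertical axis) in each of the 3 pairs. Gpm6a, Clca3a1 and Ctnnal1 are above 0 and Ltb is below 0 in every pair, and the other 5 genes have both signs.

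Across the 9 genes, 3 were higher in the CD38-positive library of all 3 pairs (13.2% of all genes tested were) and 1 was lower in all 3 pairs (11.3% of all genes). Without overlap between populations, 2 were higher in CD38-positive libraries (3.33% of all genes). The fitted value was above 0 in 6 of 9 (50.1% of all genes), with a median log2 fold change of 0.22 against 0.00. Since some of the genes were chosen from this comparison, nothing is read from these counts. The difference was lowest in pair 2 for 6 of the 9 genes and highest in pair 3 for 6 of the 9. The CD38-positive library of pair 3 held the highest level of 7 of the 9. The shares of all genes with these patterns are not given, so nothing is read from these counts either.

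Levels of the genes relative to each other were compared per kilobase of exon. The order by median over the 6 libraries was Ifitm1 (465 CPM per kilobase), Sult1a1 (87.8), Ltb (42.2), Mllt3 (15.8), Clca3a1 (5.33), Ctnnal1 (4.93), Fgd5 (1.95), Neo1 (0.820) and Gpm6a (0.516). Across libraries the range of Ifitm1, 302 to 741 CPM per kilobase, lay wholly above that of its neighbour Sult1a1, 50.1 to 179, while the ranges of all other neighbours overlapped. Within a library, each gene was above the next in 6 of 6 libraries, except Clca3a1 over Ctnnal1, Fgd5 over Neo1 and Neo1 over Gpm6a, which held in 5 of 6. By mean level, Ifitm1 was at percentile 99.2 of the genes tested and Gpm6a at 18.1.

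**Figure D3:**
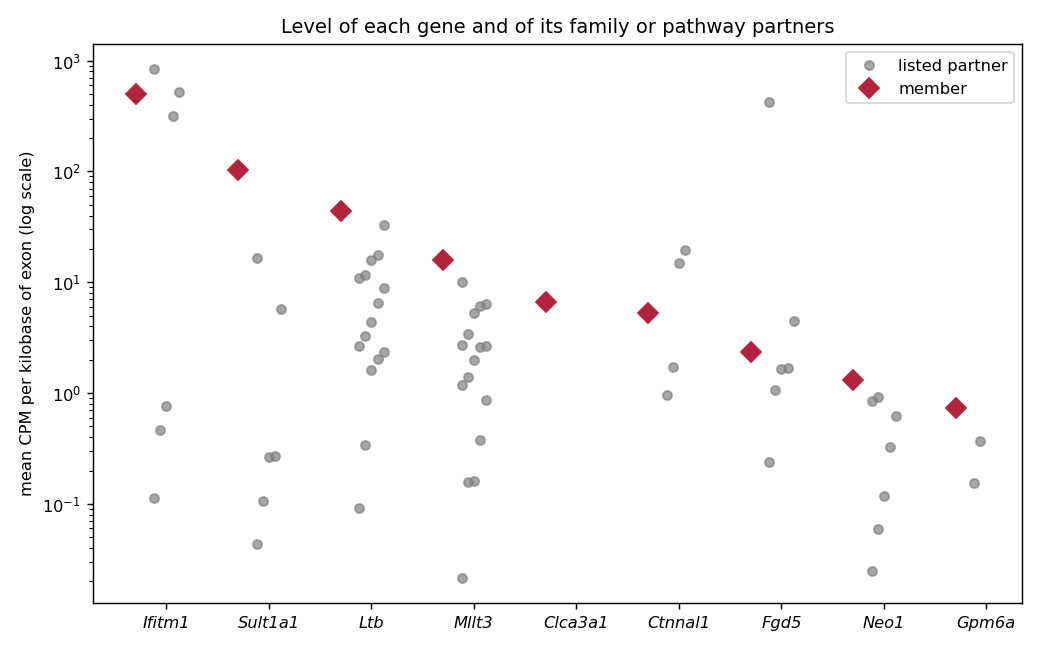
Mean CPM per kilobase of exon (log axis) of each of the 9 genes and of the genes of its family or pathway list, leaving out genes under 0.01. Ifitm1 and Gpm6a are the highest and lowest of the 9 genes, and the relatives of Clca3a1 all fall under 0.01.

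Whether the mean level of a pair, over both populations, differed between the 3 pairs was tested separately. This difference was not used to choose the genes, but it is not free of that choice. A high CD38-positive library of pair 3 raises both the mean of pair 3 and the population difference. By the mean of a pair, all 9 genes were lowest in pair 1 and highest in pair 3, a pattern seen in 18.3% of all genes tested (32.5% were lowest in pair 1 and 34.8% highest in pair 3). The populations differed in this. Among the CD38-positive libraries, pair 3 was the highest for 9 of the 9 genes (35% of all genes) and pair 1 the lowest for 7 (32.8%). Among the CD38-negative libraries, pair 1 was the lowest for 8 (32.5%), but pair 3 was the highest only for Clca3a1, Mllt3, Sult1a1 and Ifitm1, 4 of the 9 (34%). For Neo1, Gpm6a, Ctnnal1, Fgd5 and Ltb the place of pair 3 thus rests on its CD38-positive library. An unadjusted p under 0.05 was found for 7 of the 9 (13.5% of all genes), and an adjusted p under 0.05 for 0 of the 9 (0.115% of all genes, edgeR's quasi-likelihood test). Sult1a1 was 2.66-fold higher in pair 3 than in pair 1, with an edgeR adjusted p of 0.0713. Ltb was 2.71-fold higher (adjusted p = 0.125, edgeR), Mllt3 2.32-fold (adjusted p = 0.138, edgeR) and Neo1 3.38-fold (adjusted p = 0.219, edgeR). The fold was 1.67 to 2.05 for Ifitm1, Fgd5, Ctnnal1 and Clca3a1, with edgeR adjusted p-values of 0.265 to 0.394. Gpm6a had the smallest fold, 1.24, with an edgeR adjusted p of 0.782.

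DESeq2's likelihood ratio test called 3 of the 8 genes for which it gave an adjusted p, namely Sult1a1 (adjusted p = 0.000105), Ltb (0.00347) and Mllt3 (0.00363), against 2.23% of all genes. Without pair 2, edgeR called 7 of the 9 between pairs 3 and 1, all but Gpm6a and Clca3a1, against 6.23% of all genes, whereas it called 0 of the 9 without pair 1 and 0 without pair 3. The pairs are 3 sets of pools, so that the difference concerns these sets and not a condition of the study.

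**Figure D4:**
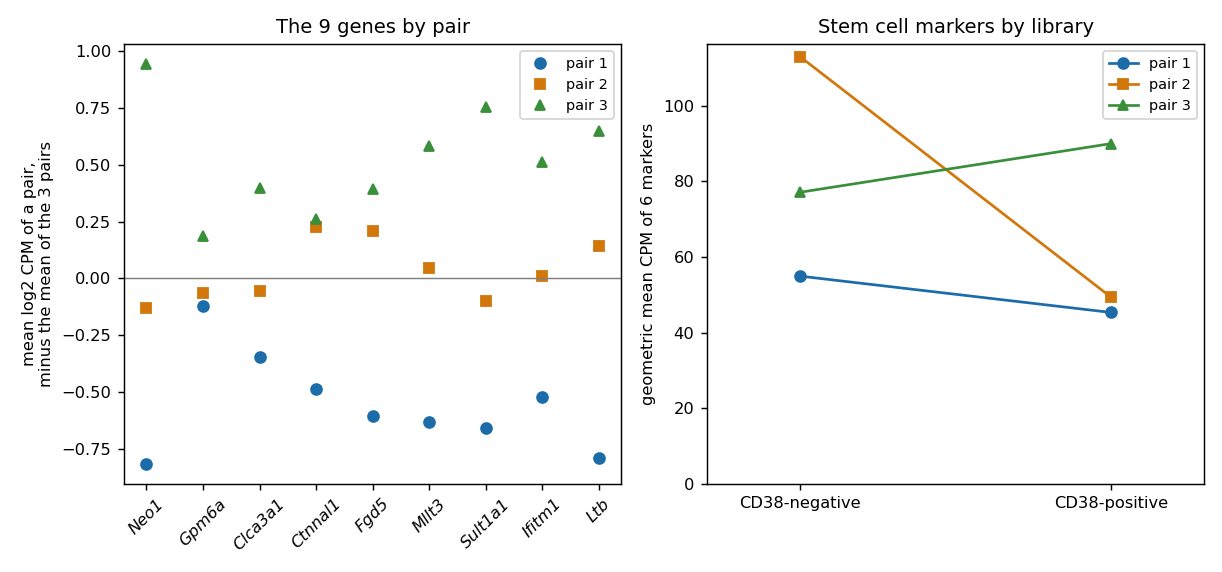
Left, mean log2 CPM of each pair minus the mean of the 3 pairs for the 9 genes, where pair 1 is lowest and pair 3 highest for all 9. Right, geometric mean CPM of 6 stem cell markers in each library, with lines joining the libraries of a pair and the CD38-negative library of pair 2 highest at 113 CPM.

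Markers of other cells also differed between the pairs. By pair means, all 10 neutrophil genes and all 7 erythroid genes were highest in pair 1, as were 33.8% of all genes tested. The populations differed for neutrophil genes. Their sum was 160069, 70583 and 92602 CPM in the CD38-positive libraries of pairs 1, 2 and 3. In the CD38-negative libraries it was 115723, 80065 and 128263 CPM, so that pair 3 was the highest there. All 6 stem cell markers were lowest in pair 1 by pair means, and 5 of them were also highest in pair 3. Of the 55 tested partner genes of the 9, 12 were lowest in pair 1 and highest in pair 3 (18.3% of all genes) and 7 had an unadjusted p under 0.05 for the pair (13.5%). The part of these markers in the pair difference of the 9 genes was not tested.

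Scaling the libraries to the geometric mean of the 6 stem cell markers in place of TMM, an alternative chosen after seeing the data, moved the population difference of all genes, whose median log2 fold change became 0.41. The geometric mean of the markers itself differed by -0.28, -1.20 and 0.22 on the log2 scale in pairs 1, 2 and 3. Single markers did not share 1 direction. Slamf1 was higher in the CD38-positive library of all 3 pairs, Ly6a and Hlf were lower in all 3, and Kit, Procr and Mecom had both signs. Gpm6a was then at 3.69, Neo1 at 1.97, Clca3a1 at 1.07 and Ctnnal1 at 0.87, which are 3.28, 1.55, 0.65 and 0.46 relative to the median of all genes. Mllt3 changed sign, from -0.13 to 0.29, but stayed at -0.13 relative to that median. Ifitm1 and Ltb were at -0.091 and -0.16, or -0.51 and -0.57 relative to it. Per pair, the ratio of Neo1 to the markers was higher in the CD38-positive library of all 3 pairs, by 2.42, 1.14 and 2.36 on the log2 scale. The ratios of Gpm6a, Clca3a1, Ctnnal1, Fgd5 and Sult1a1 were also higher in all 3, for Fgd5 by 0.45, 0.33 and 0.73. These ratios are not set against the median of all genes, and in pair 2 they include the marker difference of -1.20. The ratio of Ltb differed by 0.056, -0.066 and -0.46.

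**Figure D5:**
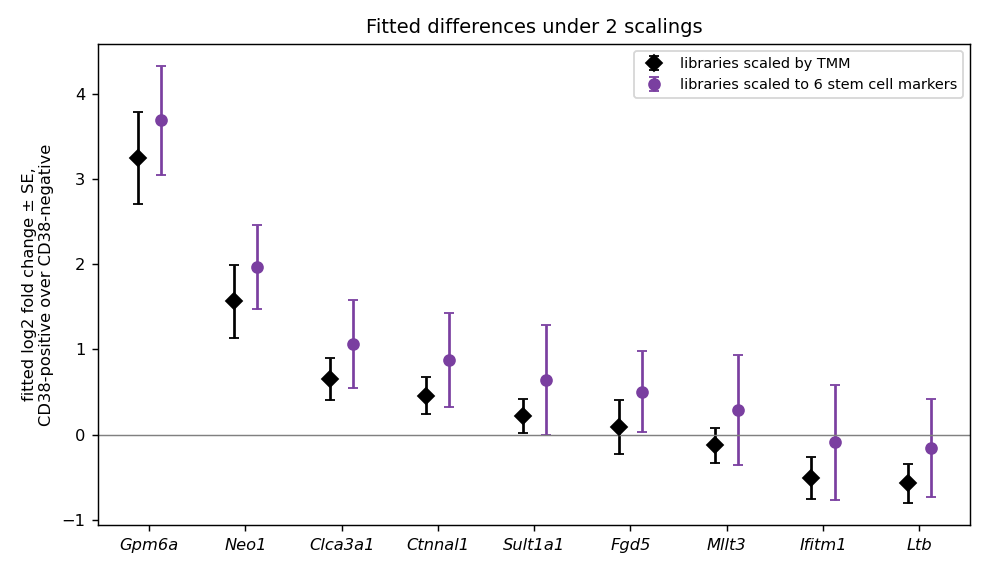
Fitted log2 fold change with its standard error for each of the 9 genes, with libraries scaled by TMM and with libraries scaled to 6 stem cell markers. Every gene is higher under the second scaling, as is the median of all genes at 0.41, and the errors are wider.

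A wider list of 32 genes linked to potent or dormant HSCs, compiled with earlier results of these data known, was examined beside the 9. In the population comparison 0 of the 32 passed edgeR's adjusted p (0.0135% of all genes did), while 10 had an unadjusted p under 0.05 (5.08% of all genes), 6 higher (2.47%) and 4 lower (2.61%) in CD38-positive libraries. DESeq2 called 2, Ramp2 and Vwf (0.0744% of all genes). The 6 higher genes include Cd38 itself. Because the list was compiled with earlier results known, nothing is read from these counts. Ramp2, a co-receptor of the adrenomedullin receptor, had 40, 111 and 90 reads in CD38-positive and 11, 22 and 16 reads in CD38-negative libraries, with an edgeR adjusted p of 0.125. Vwf, the platelet adhesion factor, was at 43.9 ± 15.9 and 19.2 ± 4.51 CPM (SD, n = 3 each), with an edgeR adjusted p of 0.293.

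Other genes of the list differed in direction. Gprc5c, a receptor marking dormant HSCs, had 27, 63 and 80 reads against 16, 1 and 6, and Selp (P-selectin) was at 14.1 ± 4.72 and 6.86 ± 0.442 CPM (SD, n = 3 each). Hlf, a stem cell transcription factor, was at 53.1 ± 23.1 and 96.0 ± 48.0 CPM (SD, n = 3 each). The most abundant per kilobase were Gstm1 (259 ± 87.2 and 275 ± 35.6 CPM), Txnip (391 ± 101 and 365 ± 96.6 CPM) and Gimap6 (206 ± 102 and 262 ± 110 CPM). By pair means, 21 of the 32 were lowest in pair 1 and highest in pair 3 (18.3% of all genes), 16 had an unadjusted p under 0.05 for the pair (13.5%), and 0 passed the adjusted p (0.115%, edgeR). The list holds Cd38, the gene of the sort, and shares Slamf1, Procr, Hlf and Mecom with the 6 markers.

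Genes with the most similar profile to each of the 9 were found by the root-mean-square difference between mean-centred log2 CPM over the 6 libraries. This likeness is a description, because the genes share libraries. The closest to Neo1 was Ccn3, a matricellular protein, with 21, 23 and 87 reads in CD38-positive and 5, 25 and 25 reads in CD38-negative libraries and a difference of 0.32, followed by Tspan12. The closest to Gpm6a was Efemp1, an extracellular matrix glycoprotein, with 16, 17 and 51 reads against 4, 2 and 0 and a difference of 0.29, followed by Rgs4, a regulator of G protein signalling. For Clca3a1 these were St6galnac2 and Pld2, at 0.085 and 0.10.

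For Ctnnal1 the nearest were Arpin, an inhibitor of the Arp2/3 complex, and Crebl2, at 0.11 and 0.13. Fgd5 was closest to Spry1, an inhibitor of receptor tyrosine kinase signalling, and Fzd3, a Wnt receptor, at 0.13 and 0.17. Mllt3 was closest to Gbp6, a guanylate-binding protein, at 0.046, and Dock9 at 0.077. Sult1a1 was closest to Ndfip2 and Plcl1, at 0.13 each, Ifitm1 to Ociad2 and Tceal1, at 0.036 and 0.069, and Ltb to Slc6a15 and Cyp2j9, at 0.14 each.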

How the data were processed

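Raw read counts per Ensembl gene were deposited by the authors, 1 table per library, with no header. The submitters' processing notes name cutadapt, STAR, HTSeq 0.6.1p1 and the builds GRCm38 and mm10; the annotation release and strand setting are not given in the sources used here. Symbols matched 49326 of 49585 identifiers through GENCODE M21, which also gave exon lengths and overlaps. Hjv was found as Hfe2, and Ntn3 was not analysed here.

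Counts were analysed in R 4.3.3 with edgeR 4.0.16 (filterByExpr, TMM, quasi-likelihood F-test) fitting pair and population to all 6 libraries, with Benjamini-Hochberg adjustment over 14785 genes and a threshold of 0.05. The 2 pair coefficients were tested together in the same fit. In simulated data, the population test called 51 of 100 genes with a 2-fold change and 90 of 100 with a 4-fold change. The pair test called 33 of 100 and 87 of 100, so it missed most 2-fold differences of the simulated kind. Only pair 2 was changed there, and only in genes above a minimum mean count. Recovery of a graded order of the 3 pairs was not simulated. Pairs follow the study design. Deviations from the group means correlated at 0.34, 0.12 and 0.24 within pairs 1, 2 and 3, and at most at 0.15 between libraries of different pairs.

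The members and lists were chosen with earlier results of these data known. All 9 members are named. From each partner list, the up to 3 genes with the highest CPM per kilobase, the up to 2 with the smallest p and any past the threshold could be named, and from the wider list the 6 with the smallest p and the 3 highest. Other genes (ligands, relatives and receptors given by their total reads, and markers) were named after their values were seen. Partners of the 9 numbered 84 in 9 lists, of which 83 were in the tables and 55 were tested. Of these, 0 passed the adjusted p in edgeR and in DESeq2 1.42.0, and 2 had an unadjusted p under 0.05. Log2 CPM used a prior count of 2. Alternatives were the model without the block, DESeq2, its size factors, unscaled totals, other count filters, the longest transcript as length, leaving out each pair and, added after seeing the data, scaling to 6 stem cell markers. Single values of some listed genes are not reported here.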

Additional observations from a re-analysis of the deposited data

How the results depend on the processing

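Of the 9 genes, 7 kept the direction of their fitted difference under all 10 alternatives (without the replicate block, DESeq2, other scalings and filters, and leaving out each pair). The exceptions were Fgd5, at -0.36 without pair 3, and Mllt3, at 0.077 without pair 2 and 0.29 with libraries scaled to the 6 stem cell markers; the cause was not tested. That scaling also gave 0.87 for Ctnnal1 and 0.64 for Sult1a1, beside a median of 0.41 over all genes. Leaving out each pair gave log2 fold changes from 0.98 to 2.37 for Neo1, 2.54 to 3.63 for Gpm6a, 0.36 to 0.85 for Clca3a1, 0.25 to 0.58 for Ctnnal1, -0.36 to 0.57 for Fgd5, -0.28 to 0.077 for Mllt3, 0.08 to 0.41 for Sult1a1, -0.79 to -0.14 for Ifitm1 and -0.75 to -0.24 for Ltb. Without the replicate block, which follows the pairing, Neo1 was at 1.77 and Gpm6a at 3.39, and the number of genes past the threshold between populations fell from 2 to 0; the block changed no other call. That number was 11 by DESeq2, 7 with DESeq2 size factors, 0 with unscaled totals, 80 without a filter, 13 with a mean of at least 10 counts, 22 when scaled to the 6 markers and 2 to 41 when a pair was left out. The number past the threshold between pairs was 17, and 329 by DESeq2, 7 with unscaled totals, 694 without a filter, 29 with a mean of at least 10 counts, 63 when scaled to the 6 markers and 5 to 933 when a pair was left out. Of the 9 genes, 0 passed between pairs, against 3 by DESeq2, 5 without a filter and 0 to 7 when a pair was left out. List medians scaled to the 6 markers were 0.062 for the neogenin axis, 0.56 for catenins (-0.037 to 0.15 when a pair was left out), 0.52 for the Fgd family, 0.23 for Mllt3 partners, 0.60 for lymphotoxin and 0.42 for the wider list. The wider list had 2 called genes by DESeq2, 3 without a filter, 2 when scaled to the markers and 0 to 2 when a pair was left out. Per kilobase of the longest transcript, Ctnnal1 was at 10.7 and Mllt3 at 31.6 CPM. Depth limits Gpm6a most, with 4 to 9 reads in CD38-negative libraries.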
